A study of Homo sapiens with 8 samples.

Results

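The subject is the effect of a constitutively active YAP, YAP5SA, on gene expression in human lung fibroblasts treated with bleomycin to make them senescent. It was read from 4 of the 8 RNA-seq libraries of the study, chosen by their labels: 2 senescent libraries without doxycycline and 2 with it. All cells were IMR90, a line of human lung fibroblasts, carrying telomerase (hTERT) and a pInducer20 vector from which doxycycline switches on N-terminally Flag-tagged YAP5SA, and they were grown in low oxygen. The senescent group received bleomycin, which breaks DNA, at 10 µg/ml for 24 h and was collected 9 days later. The senescent doxycycline group received the same bleomycin and also 1 µg/ml doxycycline for 11 days. That is longer than the 24 h of bleomycin and the 9 days after it together. The drug was thus present while senescence developed. Effects on the onset of senescence and on the established state cannot be told apart. The other 4 libraries, 2 of proliferating cells and 2 of proliferating cells given 1 µg/ml doxycycline for 11 days, were never given bleomycin. They were used for a shared estimate of the spread and for the test of whether the effect differed between states. No group here received doxycycline without carrying the transgene, so the drug and YAP5SA cannot be told apart. The labels do not say whether replicates were separate cultures, and p-values then measure only the spread between these libraries.

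YAP and its paralog TAZ (WWTR1) are the transcriptional co-activators that the Hippo pathway restrains. The kinases STK3 and STK4 activate LATS1 and LATS2, which phosphorylate serines of YAP and keep it out of the nucleus. In YAP5SA those serines are replaced by alanine, so that the protein escapes this control and can bind TEAD factors on DNA. Senescent fibroblasts stop dividing and are known for secreting inflammatory cytokines, chemokines and proteases, the senescence-associated secretory phenotype (SASP), and for an interferon response.

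The promoters of 6 genes are shown because the results turn on 3 groups of genes: YAP-TEAD targets (ANKRD1, CCN2), interferon-stimulated genes (IFI44L, BST2) and NF-kappaB-type inflammatory genes (CXCL10, IL6). Each is the stretch of 250 bases before the RefSeq start of the gene (build GRCh38.p14), printed 5′ to 3′ on the strand of the gene. Capitals mark the TEAD motif GGAATG in ANKRD1 (chr10:90921088-90921337, minus strand) and CCN2 (chr6:131951373-131951622, minus). They mark the interferon-stimulated response element, searched as GAAA, any 2 bases and GAAA, in IFI44L (chr1:78620198-78620447, plus) and BST2 (chr19:17405631-17405880, minus). In CXCL10 (chr4:76023498-76023747, minus) and IL6 (chr7:22726950-22727199, plus) they mark the kappaB motif GGANTTTCC. Motifs were searched on both strands, with N standing for any base, and in BST2 the 2 matches overlap. The CXCL10 stretch also holds an interferon element, 221 bases before the start, which is left in lower case. Not every gene of these groups has a match to the searched letters in the window. None was found for TEAD in AMOTL2, for the interferon element in CXCL11, or for kappaB in VCAM1. A TEAD match was also lacking in CXCR4, GJA5, LMCD1 and SYNPO2L. These are not on the list of YAP-TEAD targets and were looked at because they rose most in these data. Other spellings of these motifs were not searched, so the lack of a match does not show that a site is absent.
ANKRD1: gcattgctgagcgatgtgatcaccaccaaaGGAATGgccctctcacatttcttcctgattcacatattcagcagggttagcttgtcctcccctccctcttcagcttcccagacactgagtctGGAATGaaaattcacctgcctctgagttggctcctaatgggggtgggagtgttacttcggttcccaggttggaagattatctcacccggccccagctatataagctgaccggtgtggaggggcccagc
CCN2: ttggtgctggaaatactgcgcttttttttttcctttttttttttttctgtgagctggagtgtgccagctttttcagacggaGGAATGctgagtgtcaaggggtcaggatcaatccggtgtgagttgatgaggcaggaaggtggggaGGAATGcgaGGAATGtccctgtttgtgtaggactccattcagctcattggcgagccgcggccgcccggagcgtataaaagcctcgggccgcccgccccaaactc
IFI44L: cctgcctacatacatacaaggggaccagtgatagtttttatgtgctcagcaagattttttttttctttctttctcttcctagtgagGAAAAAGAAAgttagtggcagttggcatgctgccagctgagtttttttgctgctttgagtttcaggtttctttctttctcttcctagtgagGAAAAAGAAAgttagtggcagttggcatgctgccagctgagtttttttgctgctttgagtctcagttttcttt
BST2: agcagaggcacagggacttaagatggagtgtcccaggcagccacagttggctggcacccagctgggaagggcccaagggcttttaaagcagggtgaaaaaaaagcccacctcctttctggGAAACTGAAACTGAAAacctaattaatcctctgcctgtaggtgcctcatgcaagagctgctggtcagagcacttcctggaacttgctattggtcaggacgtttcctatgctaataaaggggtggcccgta
CXCL10: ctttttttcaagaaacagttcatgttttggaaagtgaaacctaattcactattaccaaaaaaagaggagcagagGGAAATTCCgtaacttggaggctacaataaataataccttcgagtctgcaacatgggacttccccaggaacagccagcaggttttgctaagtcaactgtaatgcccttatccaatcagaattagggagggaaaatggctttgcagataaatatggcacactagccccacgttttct
IL6: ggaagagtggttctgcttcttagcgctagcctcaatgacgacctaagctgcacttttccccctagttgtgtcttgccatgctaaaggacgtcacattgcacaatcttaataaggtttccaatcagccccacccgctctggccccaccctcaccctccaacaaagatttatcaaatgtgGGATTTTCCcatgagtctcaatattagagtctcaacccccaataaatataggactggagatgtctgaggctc

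Motif shares were counted over windows of 300 bases (250 before to 50 after the start), which the RefSeq table holds for 12230 of the 17155 genes tested. The TEAD motif was in 7 of the 16 promoters of YAP-TEAD targets that the table holds (43.8%), against 11.5% over the genes tested and 14.0% over all 27305 promoters. Its share was alike among genes that rose over 2-fold with doxycycline in senescent cells (14.4%) and those that fell over 2-fold (14.7%), and was 11.2% among genes that did not pass the test. The interferon element was in 23 of 32 promoters of interferon-stimulated genes (71.9%). It was in 7.94% of genes that fell over 2-fold, 2.54% of genes that rose over 2-fold, 2.97% of genes tested and 3.65% of all promoters. The kappaB motif was in 7 of 10 chemokine promoters (70.0%), 4.56% of genes that fell over 2-fold, 1.81% of those that rose over 2-fold, 1.68% of genes tested and 1.64% of all promoters. A match says only that these letters are in the window.

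The libraries held 33627708 to 39692162 counts assigned to genes, and the 4 senescent ones 35351961 to 39600145. Over tested genes, log2 levels correlated at r = 0.9897 between the senescent replicates, 0.9915 between the senescent doxycycline replicates and 0.9581 to 0.9591 across the 2 groups (across genes, which are not independent replicates). Replicates differed by more than sampling noise (chi-square per degree of freedom 15.84 and 12.69), so none was a copy of another. The first principal component of the 4 libraries separated the groups and held 80.04% of the variance. More genes had a count with doxycycline (25572 and 25198) than without (23575 and 23992), and the TMM scaling factors were 1.047 and 1.012 against 0.902 and 0.929.

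YAP1 itself (chr11:102110447-102233424) is the targeted gene, and its counts pool the cells' own transcript with any transgene reads that align to it. Its level, in counts per 1000000 of TMM-scaled library (CPM), was 190.3 and 223 in the senescent replicates 1 and 2 and 291 and 287 with doxycycline; values are given in this replicate order throughout. Both doxycycline libraries lay above both controls. Here and below, where values are given as a change from the 2 control to the 2 doxycycline libraries, the groups did not overlap unless this is stated, and a number in parentheses after CPM values is the fitted log2 change, with its SE after ±. The fitted log2 change was 0.48 ± 0.10 (SE; adjusted p = 0.0014, edgeR's quasi-likelihood test with Benjamini-Hochberg adjustment over all 17155 genes, as for every adjusted p below). In proliferating cells YAP1 was at 198 and 195 CPM without and 190.2 and 238 CPM with doxycycline (log2 change 0.12, adjusted p = 0.43), and the difference between states was 0.36 ± 0.15 (adjusted p = 0.10).

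Doxycycline was followed by a broad shift in senescent cells: 7951 of 17155 genes (46.3%) passed the threshold of an adjusted p of 0.05. Of these, 3874 were higher (22.6%) and 4077 lower (23.8%). Changes of over 2-fold were called in 1367 higher genes (7.97%) and 953 lower genes (5.56%). With libraries scaled by total counts alone instead of TMM, the median change of all genes moved from -0.0038 to 0.1653 on the log2 scale and the split became 5649 higher against 2498 lower, so that 69.3% of calls were rises in place of 48.7%. Changes below are relative to the TMM scale. Against a 1.5-fold minimum (edgeR's glmTreat) 2159 genes were called, 1175 higher and 984 lower. At the group sizes of 2 against 2 an exact permutation test of a lone gene cannot go below p = 0.333, so the calls rest on the spread shared across genes and across the 4 groups.

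**Figure D1:**
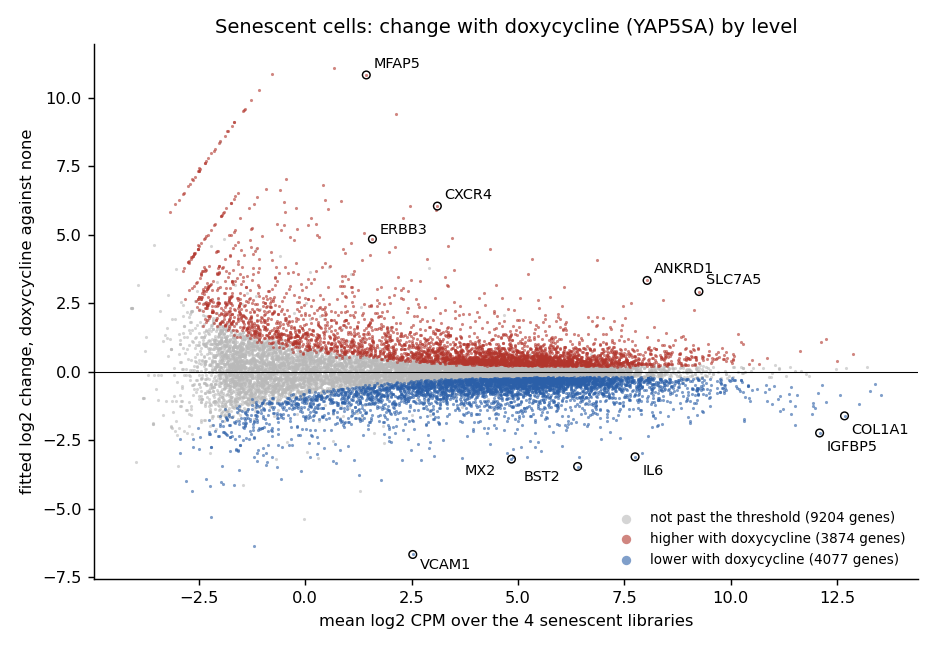
Fitted log2 change with doxycycline in senescent cells (vertical axis) against mean log2 CPM over the 4 senescent libraries (horizontal axis), 1 point per gene. The 3874 higher genes are red, the 4077 lower genes blue and the 9204 genes that did not pass the threshold grey; ANKRD1 and SLC7A5 lie high and IL6, BST2 and VCAM1 low.

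Known targets of YAP and TEAD were raised more often than not. Of 22 such genes 12 rose and 5 fell, against 22.6% and 23.8% of all genes, and their median log2 change was 0.26 (all genes -0.0038). ANKRD1, an ankyrin-repeat protein widely used as a readout of YAP activity, went from 94.6 and 71.7 to 851 and 822 CPM (log2 change 3.33 ± 0.12, adjusted p = 2.2e-11). LATS2, the Hippo kinase that is itself a YAP target, went from 64.2 and 66.5 to 244 and 259 CPM (1.95 ± 0.08). TGFB2, a TGF-beta ligand, went from 65.6 and 64.3 to 197 and 222 CPM (1.69), and AMOTL2, a scaffold that sequesters YAP, went from 171 and 167 to 409 and 409 CPM (1.27). In each of these 4 genes both doxycycline libraries lay above both controls, a separation found in either direction in 12588 of all genes (73.4%). The matricellular factors CCN2 and CCN1, which carry growth factor and integrin signals, rose by less: CCN2 went from 871 and 799.6 to 1801 and 1777 CPM (1.10) and CCN1 from 696 and 611 to 1048 and 1078 CPM (0.70). The receptor tyrosine kinase AXL rose from 504 and 488 to 967 and 1037 CPM (1.01). The 5 that fell were NUAK2 (-0.74), IGFBP3 (-0.44), FOXF2 (-0.38), MYOF (-0.32) and ARHGEF17 (-0.32). That count was 2 with total counts only, 3 without senescent replicate 1 and 2 without senescent doxycycline replicate 1.

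The pathway's own parts moved in both directions. Of 31 Hippo genes tested (of 33; VGLL1 and VGLL2 had too few counts), 13 rose and 10 fell, with a median of 0.14. WWC1, the scaffold KIBRA that activates LATS, went from 10.2 and 10.3 to 37.2 and 35.5 CPM (1.82 ± 0.11). AJUBA, a LIM protein that binds and restrains LATS, went from 52.8 and 54.4 to 135 and 132 CPM (1.32). VGLL3, a TEAD co-factor, went from 101 and 117 to 259 and 283 CPM (1.32). Among the DNA-binding partners TEAD1 (from 181 and 216 to 294 and 309.6 CPM) and TEAD4 (from 6.22 and 4.99 to 11.8 and 10.9 CPM) rose while TEAD2 (from 21.2 and 19.5 to 10.5 and 10.96 CPM) and TEAD3 (from 64.8 and 57.9 to 45.9 and 46.1 CPM) fell. TAZ itself, WWTR1, fell from 69.3 and 70.1 to 48.99 and 50.1 CPM (-0.49), and so did the atypical cadherin DCHS1, which acts upstream of the kinases (from 56.8 and 62.5 to 19.3 and 24.8 CPM; -1.44). LATS1 was at 26.2 and 28.9 CPM without and 28.6 and 26.8 CPM with doxycycline, with overlapping groups (adjusted p = 0.95).

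The 12 largest rises among genes of at least moderate level (mean log2 CPM of 3 or more) were led by CXCR4, the receptor of the chemokine CXCL12, which went from 1.06 and 1.00 to 60.9 and 76.2 CPM (log2 change 6.05 ± 0.16, adjusted p = 2.8e-12). GJA5, a connexin of gap junctions, went from 0.896 and 1.25 to 58.4 and 70.1 CPM (5.91 ± 0.16). PTPRQ, a receptor-type phosphatase, went from 1.46 and 2.61 to 54.5 and 64.7 CPM (4.88). All 3 were near 1 to 3 CPM without doxycycline and above 50 CPM with it. Several of the others encode proteins that bind actin, a reading made after the genes were seen and not tested against all genes. ZNF185, a LIM protein on actin, went from 2.41 and 1.73 to 49.8 and 49.6 CPM (4.58). SYNPO2L went from 4.65 and 3.89 to 97.7 and 94.3 CPM (4.49) and its relative SYNPO2 from 8.51 and 13.8 to 125 and 138 CPM (3.56). LMCD1, a LIM-domain cofactor, went from 10.2 and 8.91 to 167 and 168 CPM (4.13 ± 0.10), with the doxycycline replicates nearly equal. COBLL1, a relative of an actin nucleator, went from 3.81 and 3.04 to 28.1 and 32.7 CPM (3.14). The rest were MAMDC2 (from 30.8 and 25.5 to 438 and 524 CPM; 4.09), the zinc-finger gene ZNF431 (from 7.81 and 7.14 to 60.5 and 74.1 CPM; 3.17), the potassium channel KCNK6 (from 3.19 and 3.47 to 30.2 and 29.3 CPM; 3.16) and ANKRD1. No doxycycline library overlapped a control in any of the 12, which the rule for choosing them required.

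**Figure D2:**
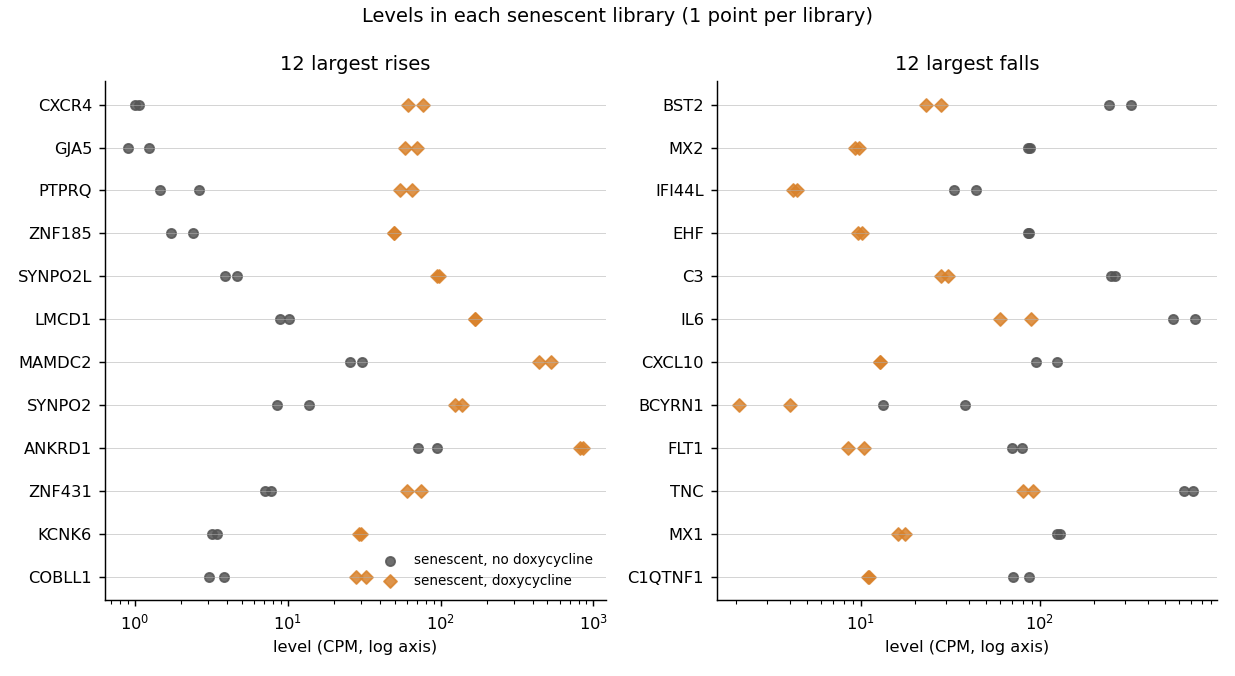
Level in CPM (horizontal log axis) of the 12 largest rises (left) and 12 largest falls (right) in each senescent library: circles, no doxycycline; diamonds, doxycycline; 1 point per library. The groups do not overlap in any row, since the choice of genes required it; CXCR4 lies near 1 CPM without doxycycline and at 60.9 and 76.2 with it.

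Ligands, receptors and feedback genes of growth factor pathways moved in both directions within each family. Of 25 TGF-beta and BMP genes tested (of 27), 12 rose and 10 fell (median 0.20). The ligand TGFB1 fell from 208 and 144 to 61.3 and 71.7 CPM (-1.41 ± 0.16), opposite to TGFB2. BMP2 (from 172 and 132 to 59.5 and 56.1 CPM; -1.39) and BMP4 (from 18.8 and 18.3 to 7.44 and 6.74 CPM; -1.39) fell. The secreted antagonists follistatin, FST (from 32.2 and 33.1 to 125 and 123 CPM; 1.92), and noggin, NOG (from 49.99 and 36.2 to 90.3 and 107 CPM; 1.19), rose. The inhibitory helix-loop-helix factors ID1, ID2 and ID3, textbook targets of BMP signalling, all rose, ID1 from 8.57 and 5.96 to 21.6 and 20.8 CPM (1.54). Of 21 genes of EGF-family ligands, receptors and ERK feedback tested (of 24), 8 rose and 9 fell (median -0.20). The receptor ERBB3 went from 0.364 and 0.730 to 16.9 and 14.3 CPM (4.84 ± 0.24) while EGFR fell from 413 and 447 to 244 and 283 CPM (-0.71). The ligand HBEGF rose from 18.8 and 15.1 to 64.1 and 62.1 CPM (1.90) and AREG fell from 26.4 and 17.7 to 10.3 and 7.33 CPM (-1.32). The MAP kinase phosphatases DUSP5 (from 80.3 and 73.8 to 411 and 398 CPM; 2.39) and DUSP1 (from 100.5 and 85 to 366 and 349.8 CPM; 1.95) rose and DUSP6 fell from 143 and 123 to 61.6 and 51.2 CPM (-1.24).

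The inflammatory secretome of the senescent cells was lower with doxycycline. Of 18 interleukins and colony-stimulating factors tested (of 20), 10 fell and 2 rose, with a median log2 change of -0.998. Over all genes 23.8% fell and 22.6% rose, the shares against which the counts of this and the following groups stand. IL6, the cytokine most often used to score the SASP, fell from 733 and 554 to 89.1 and 59.96 CPM (log2 change -3.11 ± 0.23, adjusted p = 7.0e-05). Its upstream inducers IL1A (from 133 and 84.8 to 20.8 and 16.4 CPM; -2.55 ± 0.26) and IL1B (from 145 and 104 to 31.8 and 21.96 CPM; -2.21 ± 0.24) fell. In these 3 genes the replicates of a group lay well apart, with the first the higher, yet every control lay above every doxycycline library. LIF, a cytokine of the IL6 family, fell from 92.4 and 90.1 to 17.5 and 21.5 CPM (-2.22). The macrophage growth factor CSF1 fell from 155 and 139 to 31.6 and 35.1 CPM (-2.14). The 2 that rose were IL11 (from 39.5 and 31.9 to 51.97 and 44.6 CPM; 0.44) and IL18, from a low level (from 0.112 and 0.0608 to 3.54 and 2.96 CPM; 5.17). Without senescent replicate 2 or without senescent doxycycline replicate 1 only 1 was called higher.

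Chemokines showed the same direction: of 13 tested (of 21), 10 fell and 2 rose, with a median of -1.91, and 9 fell over 2-fold. CXCL8, which attracts neutrophils, fell from 1222 and 831 to 321 and 239.9 CPM (-1.87 ± 0.22). The interferon-induced T cell attractants CXCL10 (from 125 and 94.9 to 12.8 and 12.8 CPM; -3.10 ± 0.28) and CXCL11 (from 20.4 and 19.6 to 2.44 and 1.87 CPM; -3.21) fell. CCL2, which attracts monocytes, fell from 40.02 and 35.8 to 14.7 and 15.7 CPM (-1.32). CXCL1, CXCL2, CXCL3 and CXCL5 also fell, from levels under 5 CPM. The 2 that rose were low: CCL26 went from 0.868 and 0.578 to 2.11 and 1.62 CPM, and CCL11, the eosinophil attractant eotaxin, had 0 counts in both controls and 84 counts over both doxycycline libraries, at least 25.92-fold higher against a floor of 3 counts over the group (counting error only). With the test limited to genes averaging a log2 CPM of 1 or more, 4 chemokines were called lower.

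NF-kappaB is the transcription factor family behind much of this secretome. Of 20 subunits and feedback genes tested, 11 fell and 2 rose (median -0.37). The changes were small in the subunits: NFKB1 fell from 46.7 and 46.97 to 32.9 and 30.2 CPM (-0.57), while RELA was at 125 and 109 CPM without and 123 and 119 CPM with doxycycline, with overlapping groups (adjusted p = 0.68). They were larger in induced targets. NFKBIA, the inhibitor that NF-kappaB induces, fell from 138 and 112 to 56.8 and 54.4 CPM (-1.17), and the survival factor BIRC3 fell from 72.4 and 67.2 to 24.1 and 20.98 CPM (-1.63 ± 0.10). The adhesion molecules VCAM1 and ICAM1, which NF-kappaB also induces, fell. VCAM1 went from 60.2 and 59.8 to 0.866 and 0.280 CPM (-6.67 ± 0.34; adjusted p = 3.0e-06) and ICAM1 from 712 and 570.3 to 250.3 and 251 CPM (-1.36). CYLD, a deubiquitinase that curbs the pathway, rose from 59.6 and 68.6 to 101 and 101 CPM (0.66).

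Secreted proteases and their inhibitors were mostly lower, with exceptions in the plasminogen system. Of 16 matrix metalloproteinase and TIMP genes tested (of 19), 10 fell and 1 rose (median -0.63). Interstitial collagenase MMP1 fell from 2643 and 2000.1 to 764 and 654 CPM (-1.71 ± 0.12) and gelatinase MMP2 from 1008 and 819 to 273 and 301 CPM (-1.67). The inhibitors TIMP1 (from 811 and 638 to 356 and 359 CPM; -1.02) and TIMP3 (from 8664 and 7753 to 4399 and 4606 CPM; -0.87) fell as well. Of 16 plasminogen and serpin genes tested (of 17), 8 fell and 4 rose (median -0.44). Urokinase, PLAU, fell from 2432 and 2342 to 731 and 633 CPM (-1.81). The serpin SERPINB7 rose from 119 and 104 to 247 and 253 CPM (1.16), and ANXA2, a plasminogen receptor on the cell surface, rose from 3137 and 2971 to 6266 and 6704 CPM (1.09). Of 13 IGF-binding and pappalysin genes tested (of 15), 8 fell (median -0.49) and the other 5 did not pass. IGFBP5 fell from 9613 and 9362 to 1955 and 2066 CPM (-2.24 ± 0.10) and IGFBP4 from 4038 and 3669.6 to 1489.8 and 1493 CPM (-1.37).

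The interferon response was lower almost throughout. Of 40 interferon-stimulated effector genes, 39 fell, against 23.8% of all genes, and 30 fell over 2-fold, against 5.56%; the median was -1.61. BST2 (tetherin), which holds virus particles at the cell surface, fell from 323 and 243 to 28.2 and 23.1 CPM (log2 change -3.46 ± 0.16, adjusted p = 6.4e-08). The GTPases MX1 (from 129.8 and 125 to 17.7 and 16.2 CPM; -2.91 ± 0.10) and MX2 (from 87.7 and 85.9 to 9.29 and 9.71 CPM; -3.19 ± 0.14) fell. IFI44L fell from 32.96 and 43.9 to 4.18 and 4.42 CPM (-3.16), and OAS2, which makes the activator of RNase L, fell from 166 and 173 to 26.02 and 25.1 CPM (-2.73). In these 5 genes the lowest control lay at least several-fold above the highest doxycycline library. Smaller falls were seen in ISG15 (from 252 and 244 to 109.9 and 117 CPM; -1.13), IFITM3 (from 1322 and 1107 to 674 and 726 CPM; -0.79) and SP100 (from 287 and 260.2 to 197 and 186 CPM; -0.52). The exception was IFI27, at 0.532 and 0.0608 CPM without and 11.3 and 0.196 CPM with doxycycline, a difference carried by 1 library (adjusted p = 0.36). It was called higher without robust estimation and without senescent doxycycline replicate 2.

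Genes that start and relay this response fell too. Of 13 nucleic acid sensors and adaptors tested (of 16), 12 fell (median -0.73). The RNA sensors RIG-I, listed as DDX58 (from 192 and 205 to 77.1 and 71.9 CPM; -1.41 ± 0.08), and MDA5, IFIH1 (from 80.3 and 79.1 to 24.5 and 20.4 CPM; -1.82), fell. The DNA sensor CGAS did not pass (4.28 and 3.86 CPM without and 4.13 and 3.78 CPM with doxycycline; adjusted p = 0.84), and its adaptor STING1 fell from 55.1 and 52.4 to 39.9 and 43.7 CPM (-0.36). Of 17 IRF, STAT and receptor genes tested (of 22), 14 fell (median -0.49). The transcription factor IRF1 fell from 76.8 and 71.7 to 30.5 and 26.7 CPM (-1.38). The interferon gene IFNB1 had 5 counts in all over the 4 senescent libraries and was not tested.

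Genes by which immune cells recognise a senescent cell moved in both directions. Of 14 MHC class I presentation genes tested (of 17), 11 fell (median -0.83). The light chain B2M fell from 322 and 336 to 172 and 148 CPM (-1.04), HLA-B from 701 and 715 to 310.4 and 413 CPM (-0.97 ± 0.14) and the peptide-trimming protease ERAP2 from 123 and 122 to 30.9 and 32.6 CPM (-1.95); reads of HLA genes are uncertain because near-identical copies share them. Of 17 ligands of NK and T cell receptors tested (of 21), 7 fell and 4 rose (median -0.23). The NKG2D ligand ULBP2 rose from 21.2 and 20.1 to 38.7 and 38.8 CPM (0.91) and PVR, ligand of DNAM-1 and TIGIT, rose from 203 and 197 to 318 and 333 CPM (0.70). The death ligand TNFSF10 (TRAIL) fell from 16.9 and 12.6 to 3.74 and 5.15 CPM (-1.74). PD-L1, CD274, was at 77.7 and 74.7 CPM without and 80.4 and 77.1 CPM with doxycycline, with overlapping groups (adjusted p = 0.66). Of 12 genes of the complement list tested (of 20), 9 fell and 1 rose (median -1.28, and 2 rose with total counts only). The falls include C1QTNF1, which was counted on this list as a secreted relative of C1q. The central component C3 fell from 261 and 249.4 to 27.9 and 30.5 CPM (log2 change -3.13 ± 0.09, adjusted p = 1.6e-12), and the proteases C1S (from 259 and 232 to 58.9 and 61.8 CPM; -2.03) and C1R (from 290.1 and 257 to 99.7 and 100.4 CPM; -1.45) fell.

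**Figure D3:**
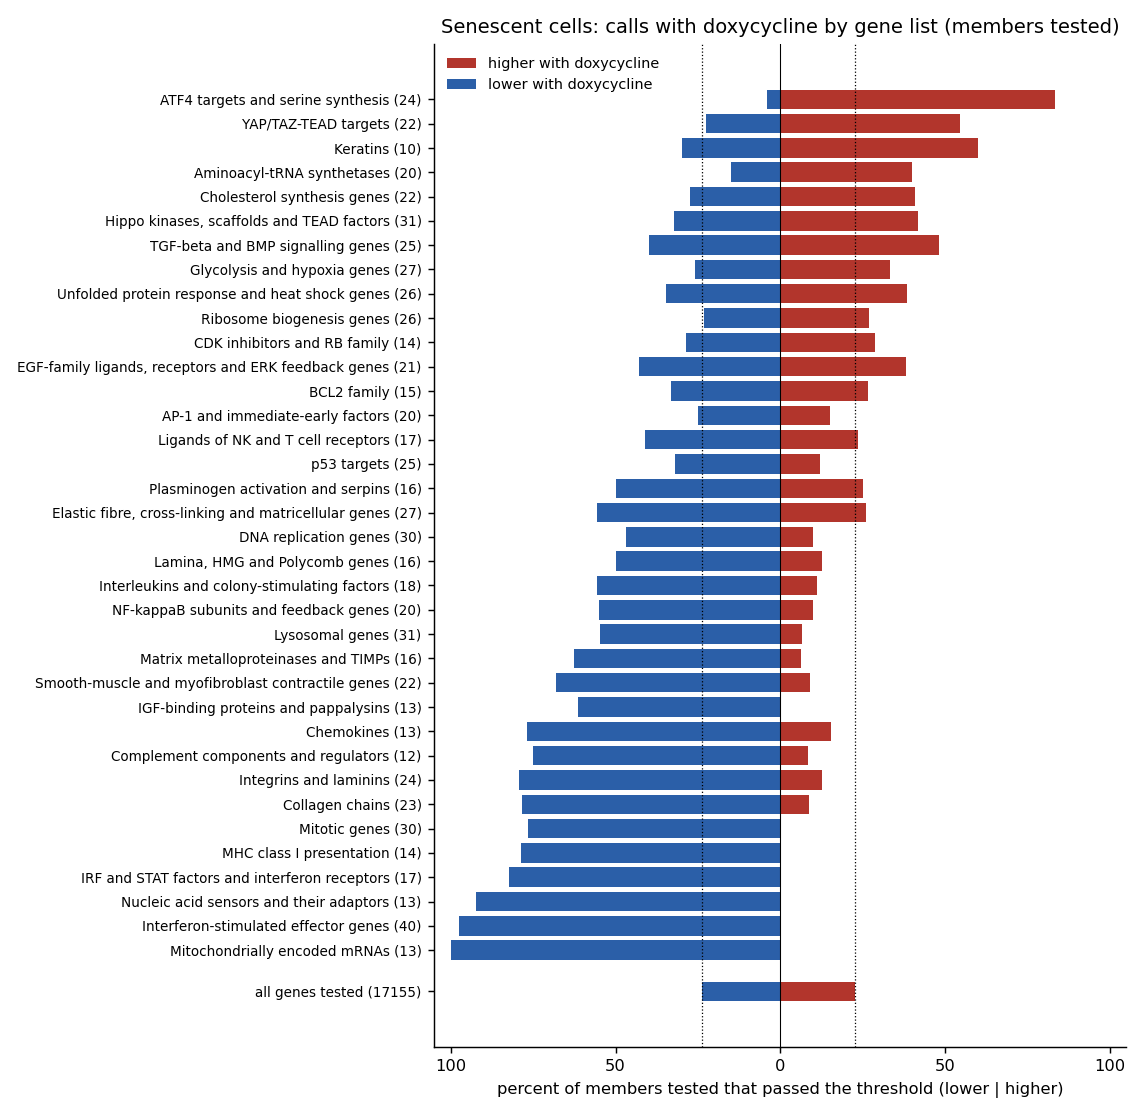
Share of the tested members of each gene list that passed the threshold in senescent cells with doxycycline, higher to the right (red) and lower to the left (blue), in percent; the number tested is in parentheses. Dotted lines mark the shares over all 17155 genes, 22.6% higher and 23.8% lower. Mitochondrially encoded mRNAs and interferon-stimulated genes lie at the lower end and ATF4 targets at the upper end.

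Fibroblast matrix genes were mostly lower (all genes 23.8% lower, 22.6% higher). Of 23 collagen chain genes tested (of 27), 18 fell and 2 rose, with a median of -1.18, and 15 fell over 2-fold. COL1A1 fell from 11304 and 11735 to 3249 and 4281 CPM (-1.61 ± 0.12), COL3A1 from 920.4 and 1079.8 to 248 and 320.4 CPM (-1.81) and COL6A3 from 5413 and 6093 to 1324 and 1629 CPM (-1.96). The exceptions were COL8A1, a short-chain collagen, which rose from 291 and 305 to 666 and 754 CPM (1.25), and the fibrillar COL11A1, which rose from a low level, from 0.392 and 0.395 to 8.12 and 12.4 CPM (4.69 ± 0.33). Of 24 integrin and laminin genes tested (of 25), 19 fell and 3 rose (median -1.07). The shared beta chain ITGB1 fell from 3894 and 3902 to 1762 and 1928 CPM (-1.08), the collagen receptor ITGA11 from 31.4 and 32.2 to 7.00 and 7.83 CPM (-2.10) and LAMA4 from 102 and 107 to 25.7 and 27.5 CPM (-1.97), whereas the laminin receptor ITGA6 rose from 328 and 324 to 691 and 784 CPM (1.18).

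Elastic fibre and matricellular genes were mixed: of 27 tested (of 28), 15 fell and 7 rose (median -0.40). Tenascin-C, TNC, fell from 637 and 717 to 80.9 and 91.99 CPM (log2 change -2.97 ± 0.11, adjusted p = 3.4e-11), and periostin, POSTN, fell from a low level, from 4.42 and 5.59 to 0.458 and 0.531 CPM (-3.33). MFAP5, a microfibril glycoprotein, had 3 counts over both controls and 6405 over both doxycycline libraries (76.6 and 94.95 CPM), a ratio of 1952 (95% counting interval 667.7 to 9469). Fibrillin-2, FBN2, rose from 8.85 and 11.9 to 40.4 and 51.7 CPM (2.16), the proteoglycan lumican, LUM, from 55.3 and 55.8 to 210.1 and 195 CPM (1.87), and lysyl oxidase, LOX, from 2459 and 2433 to 3747 and 4539 CPM (0.76). Fibronectin, FN1, overlapped between groups (8274 and 9630.0 CPM without and 9038 and 11266 CPM with doxycycline). Of 22 smooth-muscle and myofibroblast contractile genes tested (of 24), 15 fell and 2 rose (median -0.65). ACTA2, the alpha-smooth muscle actin that marks myofibroblasts, fell from 617 and 615 to 142 and 169 CPM (-1.99 ± 0.10), ACTG2 from 615 and 672 to 157 and 190.2 CPM (-1.89) and MYLK, the myosin light chain kinase, from 687 and 751 to 277 and 297 CPM (-1.33). FLNC, an actin cross-linker, rose from 701 and 737 to 1659.6 and 2052 CPM (1.37).

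Cell cycle genes, already low in senescent cells, were lower still. Of 30 mitotic genes 23 fell, and the other 7 did not pass (median -0.66). The kinase PLK1 fell from 7.22 and 6.20 to 2.85 and 3.24 CPM (-1.14) and BIRC5 (survivin) from 9.30 and 12.7 to 3.82 and 4.87 CPM (-1.34). TOP2A, which untangles DNA before division, fell from 34.8 and 48.7 to 21.8 and 20.6 CPM (-0.98). In proliferating cells without doxycycline TOP2A was at 388 and 365 CPM, far above all senescent libraries. Of 30 DNA replication genes 14 fell and 3 rose (median -0.30). RRM2, a subunit of the enzyme that makes deoxynucleotides, fell from 56.6 and 74.1 to 23.2 and 26.6 CPM (-1.39) and RFC5, of the clamp loader, rose from 25.3 and 26.4 to 57.9 and 57.95 CPM (1.16). The count of replication genes that fell was 7 with total counts only, 9 without senescent replicate 2 and 8 without senescent doxycycline replicate 1. The count that rose was 1 without senescent replicate 1 or senescent doxycycline replicate 2.

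Of 14 cyclin-dependent kinase inhibitor, cyclin and RB family genes tested (of 15), 4 rose and 4 fell (median 0.02). CDKN1A (p21), which holds senescent cells in arrest, fell from 1712 and 1531 to 1138 and 1145 CPM (-0.51 ± 0.09). CDKN2A, which encodes p16 and ARF, rose from 32.4 and 25.9 to 50.5 and 54.8 CPM (0.85 ± 0.12), and its neighbour CDKN2B (p15) fell from 20.2 and 18.3 to 9.65 and 9.31 CPM (-1.02). CDKN1B (p27) rose from 19.99 and 21.9 to 32.6 and 33.3 CPM (0.66). LMNB1, a lamina protein whose loss marks senescence, fell from 6.80 and 9.27 to 4.76 and 4.98 CPM (-0.72) and LBR, the lamin B receptor, rose from 16.6 and 19.5 to 45.6 and 43.3 CPM (1.30). Over the 16 lamina, HMG and Polycomb genes 8 fell and 2 rose (median -0.19). With total counts only these counts were 5 and 4, and leaving out senescent replicate 1 or either senescent doxycycline replicate left 1 higher. Of 25 p53 targets 8 fell and 3 rose (median -0.11, and 0.06 with total counts only). GDF15, a secreted stress factor, fell from 92.3 and 67.03 to 31.1 and 26.4 CPM (-1.47) and SPATA18 from 21.6 and 23.3 to 8.81 and 10.3 CPM (-1.23). With total counts only 7 p53 targets were higher, and 1 with DESeq2, without senescent doxycycline replicate 1 or without either untreated proliferating replicate.

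Genes of amino acid uptake and synthesis were mostly higher. Of 24 targets of ATF4, the transcription factor of the integrated stress response, and serine synthesis genes, 20 rose and 1 fell, against 22.6% and 23.8% of all genes. Their median log2 change was 0.70. SLC7A5 and SLC3A2, the subunits of a leucine transporter, went from 233 and 211 to 1666 and 1705 CPM (log2 change 2.93 ± 0.10, adjusted p = 6.3e-12) and from 79.4 and 80.7 to 286 and 293 CPM (1.85). PSAT1, an enzyme of serine synthesis, went from 41.6 and 40.6 to 126 and 113 CPM (1.54 ± 0.08). SLC7A11, the cystine importer, went from 33.5 and 38.9 to 96.7 and 77.1 CPM (1.26), and ATF4 itself from 220.4 and 215 to 359.7 and 337 CPM (0.68). The exception was ALDH18A1, of proline synthesis (from 175 and 181 to 137 and 159.8 CPM; -0.26), whose call was lost with total counts only and without senescent replicate 2 or senescent doxycycline replicate 1. Of 20 aminoacyl-tRNA synthetases 8 rose and 3 fell (median 0.13). AARS1 rose from 102 and 109 to 154 and 144 CPM (0.51) and IARS1 fell from 346 and 365 to 221 and 239 CPM (-0.63).

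All 13 mRNAs encoded by the mitochondrial genome fell (23.8% of all genes fell), with a median of -0.9999. COX1, of respiratory complex IV, fell from 12752 and 12429 to 5729 and 5350.1 CPM (log2 change -1.18 ± 0.10, adjusted p = 1.2e-07), and ND5, of complex I, from 6769.6 and 5985 to 2719 and 2416 CPM (-1.31). The smallest fall was in ATP6 (from 5789 and 5068 to 4058 and 3629.7 CPM; -0.50 ± 0.11). Together they took 6.55% and 5.967% of counts in the senescent libraries and 3.819% and 3.308% with doxycycline; in bulk RNA, fewer cells of a type and less RNA per cell cannot be told apart. The part of RNA quality in this share was not tested. Of 31 lysosomal genes 17 fell and 2 rose (median -0.34). GLB1, the enzyme behind the senescence-associated beta-galactosidase stain, fell from 138 and 126 to 89.6 and 94.8 CPM (-0.52 ± 0.08), and the cathepsins CTSK (from 54.9 and 51.3 to 12.7 and 11.4 CPM; -2.14) and CTSS (from 12.6 and 12.1 to 2.42 and 2.04 CPM; -2.46) fell. FUCA1, a fucosidase, rose from 4.20 and 4.01 to 15.4 and 15.3 CPM (1.90). The other rise was CTSO, a cathepsin, whose call was lost with DESeq2 (adjusted p = 0.0922) and when any of the 4 senescent libraries was left out (adjusted p from 0.0808 to 0.182).

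In 6 further lists, of metabolism, stress, growth and survival, members moved in both directions (all genes 22.6% higher, 23.8% lower). Of 27 glycolysis and hypoxia genes tested (of 28), 9 rose and 7 fell (median 0.02), with GAPDH up from 6359.9 and 5655 to 8830.3 and 10007 CPM (0.65) and the carbonic anhydrase CA12 down from 40.997 and 32.9 to 16.4 and 15.3 CPM (-1.22). With total counts only 14 rose and 3 fell, and 4 and 3 fell without senescent replicate 1 and senescent doxycycline replicate 1. Of 22 cholesterol synthesis genes tested (of 23), 9 rose and 6 fell (median 0.08). Of 26 unfolded protein and heat shock genes tested (of 27), 10 rose and 9 fell; DNAJB9 rose (0.72) and PDIA4 fell (-1.12), and 6 rose without senescent doxycycline replicate 2. Their median was -0.02, and 0.15 with total counts only. Of 26 ribosome biogenesis genes 7 rose and 6 fell (median 0.06). With total counts only 13 rose and 3 fell, among genes averaging a log2 CPM of 1 or more there were 12 rises, and without senescent replicate 2 and senescent doxycycline replicate 2 there were 3 and 4. Of 20 AP-1 and immediate-early genes tested (of 22), 5 fell and 3 rose (median 0.09). KLF2 rose from 5.71 and 3.74 to 25.9 and 29.4 CPM (2.54), MYC rose from 26.9 and 21.2 to 39.8 and 42.7 CPM (0.78) and EGR1 fell from 44.7 and 33.4 to 17.6 and 17.2 CPM (-1.17). The rises were 7 with total counts only and 5 without senescent replicate 1, and 3 falls were left among genes averaging a log2 CPM of 1 or more. Of 15 BCL2 family genes tested (of 18), 5 fell and 4 rose (median -0.12, and 0.05 with total counts only). BCL2L1 (BCL-xL), which protects from apoptosis, rose from 169.6 and 157 to 250.3 and 249.7 CPM (0.61) and the killer gene BMF fell from 6.13 and 6.75 to 2.52 and 2.80 CPM (-1.28). The falls were 3 with total counts only, among genes averaging a log2 CPM of 1 or more, and without senescent replicate 1 or senescent doxycycline replicate 1.

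All 16 fibroblast markers passed the filter on low counts, and with doxycycline 9 fell and 2 rose (median -0.31; all genes 23.8% lower, 22.6% higher). The falls included COL1A1, COL3A1, COL6A3 and THY1 (from 1052 and 973 to 499 and 556 CPM; -0.94), and the rises were LUM and DCN (from 444 and 472 to 529 and 559 CPM; 0.25). The intermediate filament VIM did not pass (5588 and 5464 CPM without and 5679 and 6154 CPM with doxycycline). Without senescent replicate 1, senescent doxycycline replicate 2 or either untreated proliferating replicate there was 1 rise, and 5 with total counts only. Of 10 keratins tested (of 15), 6 rose and 3 fell (median 1.07). Past 2-fold, 5 rose and 3 fell, so every keratin that fell did so by over 2-fold. Over all genes 7.97% rose and 5.56% fell over 2-fold. KRT18 rose from 86.8 and 83.8 to 497 and 462 CPM (log2 change 2.49 ± 0.08, adjusted p = 6.3e-12) and its partner KRT8 from 39.3 and 35.7 to 133 and 117 CPM (1.74). KRT14, of basal epithelium, had 1 count over both controls and 77 over both doxycycline libraries, a ratio of 70.41 (95% counting interval 12.27 to 2817). Reads of keratins may be shared with near-identical pseudogenes. Of 16 epithelial markers 7 could be tested and 5 of these rose, and the summed level of those tested went from 127.8 and 120.9 to 634.1 and 583.2 CPM. Nearly all of this sum was KRT18 and KRT8, given above. Untreated proliferating cells also expressed both, KRT18 at 157 and 162 CPM and KRT8 at 49.3 and 45.1 CPM. The adhesion protein E-cadherin, CDH1, rose at a low level, from 0.196 and 0.0912 to 1.15 and 1.03 CPM (log2 change 2.88 ± 0.55, adjusted p = 0.00059). The count of 5 was 4 when any senescent library was left out. Other defining epithelial markers were at or near 0 over the 4 senescent libraries: EPCAM had 6 counts in all, GRHL2 2, KRT5 1, SFTPC 3 and NKX2-1 0.

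Markers of other cell types were tested where their counts allowed. Of 10 endothelial markers 4 were tested and 1, the angiopoietin receptor TEK, fell (from 134 and 154 to 96.03 and 106 CPM); PECAM1 had 10 counts and CDH5 5. Of 10 leukocyte markers 4 were tested and CD68, a lysosomal protein that fibroblasts also make, fell (from 169 and 123 to 64.3 and 63.5 CPM); PTPRC had 26 counts and CD3E 3. Of 10 neuronal and glial markers 5 were tested and MAP2 fell (from 3.64 and 5.38 to 1.40 and 1.17 CPM), with SOX10 at 0 counts. Of 8 smooth muscle and pericyte markers 6 were tested and 4 fell, ACTA2, CNN1, LMOD1 and CSPG4. The call of CSPG4 was lost with total counts only (adjusted p = 0.323), without senescent replicate 2 (0.321) and without senescent doxycycline replicate 1 (0.236). The summed level of those tested went from 1132 and 1165 to 481.7 and 544.0 CPM.

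Among the 12 largest falls, 4 belonged to no group above or stood apart from theirs. EHF, an ETS factor of epithelia, fell from 86.1 and 86.9 to 10.1 and 9.68 CPM (log2 change -3.13 ± 0.10, adjusted p = 3.0e-12). FLT1, a VEGF receptor, fell from 79.7 and 69.8 to 8.51 and 10.4 CPM (-2.98 ± 0.12). C1QTNF1, a secreted relative of C1q, fell from 86.6 and 70.7 to 11.001 and 11.1 CPM (-2.83). BCYRN1, a noncoding RNA with near-identical copies in the genome and so uncertain, went from 38.4 and 13.3 to 4.02 and 2.098 CPM (-3.07 ± 0.68; adjusted p = 0.024). Its call was lost in the fit of the 4 senescent libraries alone and without either senescent doxycycline replicate (log2 change -3.61 without replicate 1 and -2.69 without replicate 2), or without any proliferating library.

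The effect of doxycycline was wider in senescent than in proliferating cells by count of calls. In proliferating cells 3938 of 17155 genes passed (23.0%), 2158 higher (12.6%) and 1780 lower (10.4%), with 675 and 209 past 2-fold. Without proliferating replicate 1 or 2 there were 2099 and 2011 calls. The 2 comparisons share no library. Genes higher in both states numbered 1391, which is 35.9% of those higher in senescent and 64.5% of those higher in proliferating cells. Genes lower in both numbered 1191, 29.2% and 66.9% of the respective lists. Opposite calls were made in 213 genes: 88 were higher in senescent and lower in proliferating cells, and 125 the reverse. The difference between the effects, tested directly, passed in 3407 genes (19.9%). In 1386 (8.08%) the senescent effect was the more positive and in 2021 (11.8%) the more negative. The difference passed in 2896 of the 7951 genes called in senescent cells (36.4%). Of the 5156 genes called in senescent cells alone, it passed in 2008. Leaving out proliferating replicate 1 or 2, or senescent doxycycline replicate 1, brought the count of differences to 1954, 1852 and 2022.

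ATF4 targets, mostly higher in senescent cells, were mostly lower in proliferating ones. In proliferating cells 13 of the 24 fell and 2 rose (median -0.28), and the difference was positive in 20 and negative in 1. PSAT1 went from 62.7 and 64.8 to 49.6 and 46.2 CPM in proliferating cells (-0.41), a difference of 1.95 ± 0.12 (adjusted p = 8.4e-08). PCK2, the mitochondrial enzyme of phosphoenolpyruvate synthesis, went from 22.1 and 23.3 to 13.3 and 11.5 CPM in proliferating cells and from 14.7 and 12.8 to 33.8 and 28.3 CPM in senescent ones (difference 2.05 ± 0.16). DDIT4, an inhibitor of mTORC1, fell in proliferating cells from 62.8 and 62.2 to 20.4 and 16.4 CPM, while in senescent cells its libraries overlapped (59.1 and 48.8 CPM without and 71.3 and 57.9 CPM with doxycycline; difference 2.03); it was called higher there with total counts only, with no filter on low counts, and without senescent replicate 1 or senescent doxycycline replicate 2 (log2 changes 0.43, 0.25, 0.40 and 0.40). Mitochondrial mRNAs also parted: 5 of 13 rose in proliferating cells (median 0.25), where their share of counts was 5.586% and 5.939% without and 7.052% and 6.876% with doxycycline. The difference was negative in all 13 (11.8% of all genes), for COX1 -1.32 ± 0.14 (adjusted p = 1.2e-05).

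Over all genes 12.6% rose and 10.4% fell in proliferating cells, and 11.8% had a negative and 8.08% a positive difference; the counts of further groups stand beside these shares. In proliferating cells 20 of the 40 interferon-stimulated genes fell and 2 rose (median -0.47), and the difference was negative in 28. Many of these genes were scarcely expressed there without doxycycline, such as MX1 at 0.903 and 1.13 CPM against 129.8 and 125 CPM in senescent cells. For collagens 13 of 23 fell and 2 rose in proliferating cells (median -0.45), with a negative difference in 15, for COL1A1 -0.92 ± 0.17. Of the 25 p53 targets 12 rose and 1 fell in proliferating cells (median 0.25), and the difference was negative in 12. BTG2, an antiproliferative p53 target, rose from 2.29 and 2.98 to 6.15 and 5.15 CPM in proliferating cells and fell from 30.5 and 26.4 to 17.6 and 17.005 CPM in senescent cells (difference -1.81 ± 0.19). Of the 31 lysosomal genes 7 rose and 6 fell in proliferating cells (median 0.03), with a negative difference in 17. Mitotic genes fell in both states, 23 of 30 in each, and the difference was negative in 7. Of 26 ribosome biogenesis genes 14 rose in proliferating cells (median 0.31), and the difference was negative in 10 and positive in 1.

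**Figure D4:**
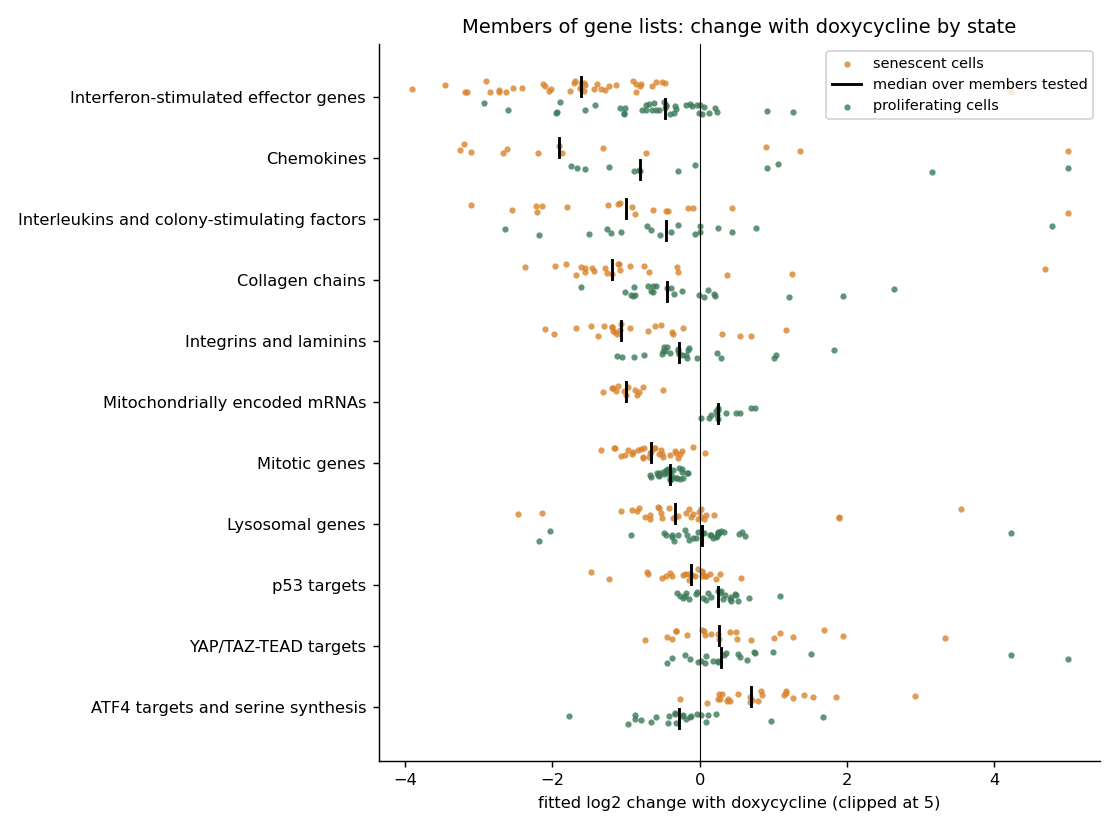
Fitted log2 change with doxycycline (horizontal axis, clipped at 5) for each tested member of 11 gene lists in senescent (orange) and proliferating cells (green), 1 point per gene; black bars are medians over members tested. ATF4 targets lie to the right in senescent (median 0.70) and to the left in proliferating cells (-0.28), and mitochondrial mRNAs do the reverse (-0.9999 and 0.25).

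The largest differences between states named genes of several kinds. On the positive side SYNPO2 rose in senescent cells alone by call: it was at 2.27 and 1.80 CPM without and 2.97 and 2.60 CPM with doxycycline in proliferating cells (difference 3.12 ± 0.35, adjusted p = 0.00047). ZNF431 rose in both, in proliferating cells from 10.2 and 10.1 to 23.1 and 23.5 CPM (difference 1.97). The linker histone H1-10 rose from 16.3 and 15.05 to 40.5 and 38.7 CPM in senescent cells and fell from 67.7 and 75.3 to 47.6 and 57.6 CPM in proliferating ones (difference 1.78). The genes on the negative side were all higher in untreated senescent than in untreated proliferating cells, though their changes with doxycycline took several forms. Both untreated levels enter the difference, so choosing genes by it favours such levels. BMPER, a secreted BMP modulator, rose from 0.659 and 0.601 to 37.5 and 35.6 CPM in proliferating and from 15.5 and 18.1 to 45.8 and 48.7 CPM in senescent cells (difference -4.36 ± 0.18). PAPPA, a protease that frees IGF from its binding proteins, rose from 5.74 and 6.19 to 93.9 and 121 CPM in proliferating cells and overlapped in senescent ones (197 and 232 CPM without and 177 and 219.9 CPM with doxycycline; difference -4.28 ± 0.21). SERPINB2, an inhibitor of plasminogen activators, rose from 22.7 and 20.8 to 151 and 157 CPM in proliferating cells and was at 465 and 359 CPM without and 339.6 and 341 CPM with doxycycline in senescent ones (log2 change -0.27, adjusted p = 0.038). The senescent call of SERPINB2 was lost with total counts only (adjusted p = 0.394), without senescent replicate 1 (0.502) and without senescent doxycycline replicate 1 (0.16) or 2 (0.126), as well as without either untreated proliferating replicate. ANKRD1 rose from 3.08 and 3.68 to 277 and 266 CPM in proliferating cells, from a far lower start than in senescent cells (difference -3.00 ± 0.18). LCE2A, a cornified envelope gene, rose in both (proliferating from 1.39 and 1.10 to 19.3 and 16.8 CPM, senescent from 11.4 and 9.24 to 17.7 and 21.9 CPM; difference -2.91). The mitochondrial proline tRNA, listed as TRNP, fell from 354 and 233 to 57.9 and 49.1 CPM in senescent cells and was at 47.4 and 43.7 CPM without and 59.96 and 58.7 CPM with doxycycline in proliferating ones (difference -2.84).

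**Figure D5:**
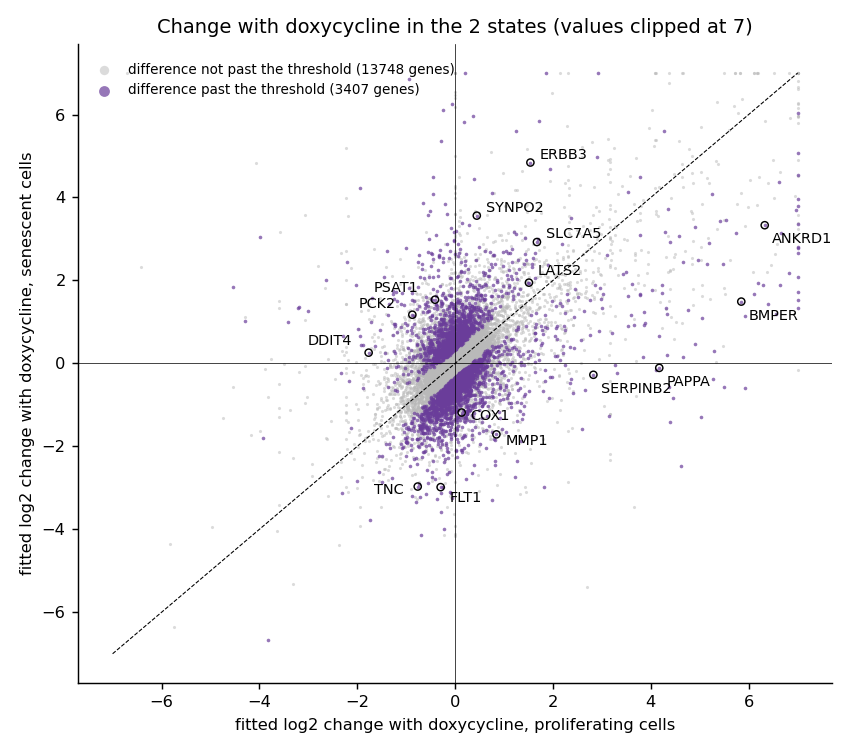
Fitted log2 change with doxycycline in senescent (vertical) against proliferating cells (horizontal), 1 point per gene, values clipped at 7; the dashed line marks equal change. The 3407 genes whose difference passed the threshold are purple and the other 13748 grey. ANKRD1, BMPER and PAPPA lie below the dashed line and SYNPO2, PSAT1 and PCK2 above it.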

How the data were processed

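Total RNA was extracted with acid phenol and libraries were made with a stranded mRNA kit and sequenced on an Illumina NovaSeq instrument, per the labels' protocols. The deposited table holds raw read counts per gene for all 8 libraries. Reads were handled with Trimmomatic 0.36, HISAT2 2.1.0 and featureCounts 1.6.3 on build hg38, per the submitters' processing notes. For the gene annotation and the counting's strand setting, nothing is given in the sources used here; overlapping genes and near-identical copies are therefore uncertain.

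Of 54628 genes, 32623 had a count and 17155 passed edgeR's filterByExpr. All 8 libraries entered 1 robust quasi-likelihood fit with 4 groups (edgeR 4.0.16, R 4.3.3, TMM scaling), with contrasts for doxycycline in senescent cells, in proliferating cells, and their difference, and Benjamini-Hochberg adjustment over all genes at 0.05. CPM are TMM-scaled. The scripts were tested on simulated data of 17155 genes for doxycycline in senescent cells, with 50 genes changed at each size. Of these, 58% were recovered at 1.5-fold, 66% at 2-fold, 82% at 4-fold and 82% at 8-fold. False calls numbered 15, which was 9.43% of calls and so above the nominal 0.05. The simulation changed far fewer genes than were called in the data, and its other genes had equal means in all groups. Its shares of recovered and false calls therefore need not hold for the data. Intervals on ratios of low counts are exact and cover counting error only.

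The named genes are YAP1, the 12 largest rises and 12 largest falls (passing the test, mean log2 CPM of 3 or more over the senescent libraries, no overlap), up to 4 members with the largest change per list, the 6 largest differences in each direction, and further list members where their list is described. The members of the 42 gene lists (868 genes) and these rules were chosen with earlier results of these data known. Replicate numbers were not used to pair the libraries in the main fit, since the labels do not say that they do. Deviations of same-numbered senescent and senescent doxycycline libraries correlated at 0.0402. Over all pairs of groups these correlations ran from -0.0121 to 0.159, the highest between proliferating doxycycline and senescent libraries. A batch shared by number was not excluded. Alternatives were DESeq2 1.42.0, limma-voom (limma 3.58.1), other scalings and filters, glmTreat, replicate blocks, the 4 senescent libraries alone, and leaving out each library. Promoter sequences are from RefSeq (GRCh38.p14) and were matched by symbol.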

Additional observations from a re-analysis of the deposited data

Results flagged for a closer look

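The difference of the doxycycline effect between senescent and proliferating cells was tested for every gene (edgeR, adjusted over all 17155 genes), and 25 of the 33 genes named among the largest rises, falls and differences passed. Differences are on the log2 scale, senescent effect minus proliferating effect.

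Among the largest rises the effect was more positive in senescent cells for SYNPO2 (3.12), ZNF431 (1.97), SYNPO2L (0.72) and LMCD1 (0.59). It was less positive there for CXCR4 (-3.99), ANKRD1 (-3.00), COBLL1 (-2.60), MAMDC2 (-1.16) and KCNK6 (-1.13). CXCR4 had 0 counts in both untreated proliferating libraries, so its fitted difference depends on the prior count. Among the largest falls the senescent effect was the more negative for EHF (-2.85), FLT1 (-2.69), IFI44L (-2.56), TNC (-2.20), MX1 (-2.18), C1QTNF1 (-0.83) and C3 (-0.82).

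The other differences chosen for their size were PCK2 (2.05), DDIT4 (2.03), PSAT1 (1.95) and H1-10 (1.78) on the positive side. On the negative side were BMPER (-4.36), PAPPA (-4.28), SERPINB2 (-3.10), LCE2A (-2.91) and TRNP (-2.84).

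Of 141 other genes named from the lists, 108 passed the same test, and 5 of them were called in opposite directions in the 2 states. CA9, a carbonic anhydrase induced by hypoxia (2.62), VLDLR, a lipoprotein receptor (2.01), and CDKN1B (0.95) rose in senescent and fell in proliferating cells. MMP1 (-2.56) and BTG2 (-1.81) fell in senescent and rose in proliferating cells.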

How the results depend on the processing

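The count of 7951 genes called in senescent cells ranged from 5718 (without senescent doxycycline replicate 1) to 8599 (without proliferating doxycycline replicate 2) over the libraries left out. It was 6842 with DESeq2, 7757 with limma-voom, 7940 with no filter on low counts and 7805 in the 4 senescent libraries alone. Against a 1.5-fold minimum 2159 were called (1175 higher, 984 lower), with 517 differences between states and 689 calls in proliferating cells. With total counts only 2498 genes were lower. Over the libraries left out, the 3407 differences ranged from 1852 to 3903 and the 3938 calls in proliferating cells from 2011 to 4155, lowest without an untreated proliferating replicate. Leaving out a library leaves its group with 1 sample, which is then assumed to vary like the other groups.

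With a replicate block from the titles' numbers, 8281 genes were called in senescent cells, 4355 in proliferating cells and 3871 differences. A block from the numbers in the sample descriptions gave 7945, 2353 and 2712. Under both blocks DDIT4 and IFI27 were called higher in senescent cells (DDIT4 adjusted p = 0.0164 and 0.0154), and under the second BCYRN1 lost its call (adjusted p = 0.0918). PAPPA, not called in senescent cells, changed sign to 0.0562 with total counts only, 0.0087 without senescent replicate 2 and 0.0475 without senescent doxycycline replicate 1, and was -0.2765 without senescent doxycycline replicate 2; its groups overlap. Of the 175 genes that the naming rule gives before further list members are added, 173 were called. Against 1.5-fold 33 of them lost the call; under each other alternative at most 7 of those tested did, and the stricter filter on low values tested fewer of them. Of 84 counts of list members higher or lower, those that moved by over 1.5 times with TMM replaced by total counts or with a library left out are given beside the lists. The causes were not tested. Genes under about 1 CPM rest on few counts, and their fold changes are the least certain.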
